A study of Mus musculus with 4 samples.

Results

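Venous endothelial cells line the veins and venules of the brain. Whole brains of 4 male C57BL/6J mice had been dissociated into single cells (30 min at 37 °C), stripped of myelin, debris and red cells, and profiled by droplet single-cell RNA sequencing, in which each captured RNA molecule carries a unique molecular identifier (UMI) and each droplet a barcode. Age and diet were crossed with 1 mouse in each cell of the design: an adult mouse fed low fiber (0% inulin), an adult mouse fed high fiber (5% inulin), an aged mouse fed low fiber (0%) and an aged mouse fed high fiber (5%). Every diet also held 1% cellulose and was given for 8 weeks from an age of 3 to 4 months (adult) or 23 to 24 months (aged). Adult mice had been raised in-house and aged mice came from an outside colony, so age and origin cannot be told apart here. The 4 mice gave 9246, 10256, 7881 and 9493 barcodes with 115814810, 111648775, 88248117 and 108131200 UMIs, in the order adult 0%, adult 5%, aged 0% and aged 5% inulin, an order kept for all values below.

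Of all 36876 barcodes, 682 were taken as venous endothelial cells from their own UMI counts. A barcode of this kind had at least 1000 UMIs and at most 15.8% of them from mitochondrial genes. It held at least 20 UMIs per 10000 of the endothelial genes *Cldn5*, *Flt1*, *Pecam1* and *Ly6c1*, at most 4 UMIs of the pericyte genes *Vtn*, *Kcnj8* and *Abcc9*, and under 15 UMIs per 10000 of the microglial complement genes *C1qa*, *C1qb* and *C1qc*. These limits, called the endothelial gate here, let through 8495 barcodes. Venous barcodes then needed at least 4 UMIs in sum of *Slc38a5*, *Nr2f2*, *Vcam1* and *Lcn2*, and no more than 1 UMI each of the summed arterial genes *Bmx*, *Gkn3*, *Sema3g*, *Vegfc* and *Mgp* and of *Plvap*, a gene of fenestrated vessels. The 4 mice contributed 191, 220, 115 and 156 venous barcodes, whose summed depth was 2315089, 2721736, 1302408 and 2078046 UMIs. For comparison, 3483 barcodes of the gate with at most 1 UMI of the 4 venous genes, of the arterial genes and of *Plvap* were called capillary-type. A further 1862 with at least 4 UMIs of the arterial genes, at most 3 of the venous genes and at most 1 of *Plvap* were called arterial-type.

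Veins and venules collect blood from the capillary bed, and in the brain the venules behind the capillaries are the usual place where leukocytes attach to and cross the vessel wall. Venous identity is set by the transcription factor COUP-TFII, the product of *Nr2f2*, which restrains Notch signaling and with it the arterial program. *Slc38a5* encodes an amino acid transporter, *Vcam1* an adhesion molecule that leukocytes bind through integrins, and *Lcn2* a secreted iron-siderophore binding protein of the acute phase response that neutrophils also store in large amounts.

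A fixed threshold of 4 UMIs is reached more easily by a deeper barcode. Venous barcodes had a median of 10146 UMIs and 3543 genes, against 4641 UMIs in capillary-type and 7583 in arterial-type barcodes. By mouse the venous median was 10400, 9591, 9677 and 10252 UMIs, so that depth per barcode did not separate the ages. The summed venous depth and the UMIs of all barcodes, both given above, were lower in both aged mice than in both adult mice. *Slc38a5* and *Nr2f2* alone reached 4 UMIs in 537 of the 682 barcodes (78.7%). Another 118 reached the sum only with the help of *Vcam1*, 18 only with the help of *Lcn2*, and 24 held no UMI of *Slc38a5* or *Nr2f2*. Just inside the threshold, 134 barcodes had a sum of 4 UMIs and just outside it 255 barcodes had a sum of 3. In these 2 sets the venous gene *Vwf*, which the threshold did not use, stood at 351 ± 168 and 281 ± 87.9 counts per 1000000 UMIs (CPM), and *Il1r1* at 66.3 ± 25.6 and 58.2 ± 12.3 CPM (mean ± SD over 4 mice). In the 548 barcodes with a sum of 5 or more they stood at 670 ± 179 and 166 ± 12.2 CPM, so the border of the set was gradual.

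A few of these barcodes carried the RNA of other cells, and this has to be stated before the results. At least 20 UMIs per 10000 of genes of granulocytes, choroid plexus, astrocytes, smooth muscle, red cells, neurons or lymphocytes were found in 16, 26, 8 and 14 of the venous barcodes, 64 in all (9.38%). The doublet caller Scrublet marked 36 of these 64 and 44 of all 682 (6.45%), against 1.78% of capillary-type barcodes. Granulocyte genes (*S100a8*, *S100a9*, *Camp*, *Ngp*) passed that level in 4 of 411 adult and 1 of 271 aged venous barcodes, and Scrublet marked none of these 5. A single barcode of the adult mouse fed 0% inulin, with 26724 UMIs and 268 UMIs of *Lcn2*, held 98.8% of the granulocyte UMIs and 90.8% of the *Lcn2* UMIs among that mouse's venous barcodes. In the adult mouse fed 5% inulin, 3 barcodes held 97.6% and 86.1%. Results are therefore given with all members and, for part of them, also without the 64 barcodes, a choice made once the values were known. No barcode sequence was shared between venous barcodes of different mice, although 192 sequences occurred in more than 1 mouse among all barcodes.

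The venous label was checked with markers that had no part in the choice. These levels describe classes cut from the same counts, so no test was applied. Of 16 such venous markers, 11 were higher in venous than in capillary-type barcodes in all 4 mice, and 10 were higher than in arterial-type barcodes. *Emcn*, a sialomucin gene of the same list, was lower than in capillary-type barcodes in all 4 mice (381 to 473 CPM, 0.72-fold). *Vwf*, which encodes the clotting protein von Willebrand factor, stood at 562, 415, 814 and 714 CPM, a mean 3.17-fold above capillary-type barcodes (1 CPM added). *Il1r1*, the interleukin 1 receptor, stood at 155, 140, 169 and 143 CPM and was 7.41-fold above. *Tmsb10*, which encodes an actin-binding thymosin, was 2.53-fold above. *Adgrg6*, an adhesion G protein-coupled receptor, stood at 39.3, 18.0, 19.2 and 10.6 CPM, while its mean in capillary-type barcodes was 0.75 CPM. *Icam1*, an integrin ligand that inflammation raises, stood at 38.0, 103, 59.1 and 91.4 CPM (3.67-fold above), and *Lrg1*, a secreted glycoprotein, at 5.62, 5.88, 6.14 and 26.9 CPM. Without the barcodes rich in other cells' genes *Lrg1* stood at 0.99, 0.48, 6.89 and 30.7 CPM, so most of its adult level came from those barcodes. With all members, other genes of large or inflamed venules were lower still. The chemokine-binding receptor gene *Ackr1* stood at 1.30, 0.37, 0.77 and 8.66 CPM, *Selp* (P-selectin) reached 0.77 CPM in 1 mouse and was at 0 in the other 3, and *Sele* (E-selectin) reached 2.41 CPM in the aged mouse fed 5% inulin alone. All 16 arterial markers outside the rule were lower than in arterial-type barcodes in every mouse, and the gap junction gene *Gja5* was at 0 in every venous sum. Of 12 capillary markers, 7 were lower and 3 higher than in capillary-type barcodes in all 4 mice, among them the transporter gene *Mfsd2a* (253 to 282 CPM, 0.65-fold) and the carbonic anhydrase gene *Car4* (721 to 1087 CPM, 1.46-fold).

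Outside the rule, and among genes of at least 50 CPM in every venous sum, the 12 most raised over capillary-type barcodes, ranked by the fold in the lowest of the 4 mice, included *Cyp2e1*, *Il1r1*, *Wnt5a*, *Flrt2*, *Vwf*, *Nrp2*, *Myof*, *Ctsc*, *Tmsb10* and *Gdap10*. The top one, *Cyp2e1* (chromosome 7, 140763739 to 140774987, GRCm38), encodes a cytochrome P450 that oxidizes ethanol and other small molecules, and stood at 156, 98.5, 342 and 350 CPM, a mean 13.9-fold over capillary-type and 43.9-fold over arterial-type barcodes. *Wnt5a* encodes a ligand of non-canonical Wnt signaling and was 5.07-fold over capillary-type barcodes, and *Nrp2*, a co-receptor for semaphorins and vascular endothelial growth factors known from veins and lymphatic vessels, was 3.21-fold over. All 12 were also above arterial-type barcodes in all 4 mice.

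**Figure D1:**
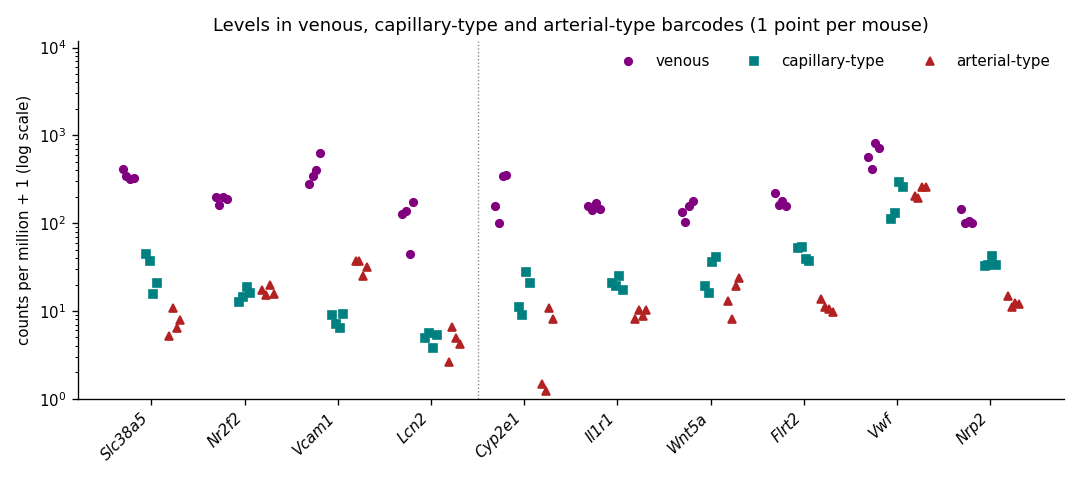
Level in CPM plus 1 (log axis) of the 4 genes that chose the venous barcodes (left of the dotted line) and of 6 of the 12 other genes with the highest fold over capillary-type barcodes among those of at least 50 CPM in every venous sum. Each point is the UMI sum of 1 mouse in venous, capillary-type or arterial-type barcodes, and for the 6 genes on the right the venous points lie above those of both other classes, with *Cyp2e1* between 98.5 and 350 CPM.

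The members varied among themselves along *Vcam1*. Without the 64 barcodes rich in other cells' genes, 185 members held at least 4 UMIs of *Vcam1*, 285 held none and 148 lay between. By mouse the first set numbered 41, 52, 33 and 59 members and the second 99, 98, 40 and 48. The first set was thus larger relative to the second in both aged mice. The part of this mix in the results by age was not tested. The first set was deeper (median 13347 against 8588 UMIs), which a count threshold favors, so only CPM levels are compared, as a description. *Icam1* stood at 153 ± 57.5 CPM where *Vcam1* was high and 29.1 ± 18.6 where it was absent (mean ± SD, n = 4 mice). *Vwf* stood at 979 ± 119 and 413 ± 171, *Il1r1* at 245 ± 33.2 and 97.3 ± 30.3, and *Wnt5a* at 224 ± 25.2 and 102 ± 25.1 CPM. Each of these was higher with *Vcam1* in 4 of 4 mice. Of the 16 venous markers outside the rule, 10 were higher with *Vcam1* in 4 of 4 mice and 1, *Emcn*, was lower. Of the 12 capillary markers, 10 were lower in 4 of 4 mice and none was higher in all 4, with *Cxcl12*, the gene of a chemokine, at 613 ± 296 and 1660 ± 739 CPM and *Mfsd2a* at 209 ± 16.1 and 350.5 ± 8.43 CPM. The other 2 capillary markers were *Tfrc*, the transferrin receptor gene (688 ± 57.8 and 680.3 ± 71.5 CPM), and *Slc16a1*, a monocarboxylate transporter gene (543 ± 119.5 and 653 ± 107 CPM).

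The genes that chose the members are given by mouse as a description with no test. *Slc38a5* (chromosome X, 8271133 to 8280179) stood at 412, 340, 319 and 330 CPM and *Nr2f2* (chromosome 7, 70351944 to 70366735) at 200, 159, 197 and 190 CPM. The aged values of *Slc38a5* were just below the adult ones, and those of *Nr2f2* overlapped. *Vcam1* (chromosome 3, 116109949 to 116129688) stood at 280, 341, 399 and 625 CPM, highest in the aged mouse fed 5% inulin. *Lcn2* (chromosome 2, 32384633 to 32388252) stood at 127, 135, 43.0 and 172 CPM with all members, and at 12.8, 24.4, 46.5 and 183 CPM without the 64 barcodes. The order of the mice for *Lcn2* therefore changed with those barcodes, while *Vcam1* kept its order (294, 407, 428 and 701 CPM). After each barcode was thinned to 2000 UMIs, *Lcn2* was seen in 2.62, 5.45, 8.77 and 20.1% of all venous barcodes, against 0.82, 1.62, 0.71 and 0.79% of the microglial barcodes (at least 15 UMIs per 10000 of the C1q genes and under 5 of the endothelial genes), which served as the background of free RNA. Unthinned, the venous shares were 10.5, 11.4, 21.7 and 42.3%, at median depths of 9591 to 10400 UMIs, and the microglial ones 2.20, 4.03, 2.70 and 2.03%, at 6625 to 7332 UMIs. Thinning left out 3 venous and 179 microglial barcodes.

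**Figure D2:**
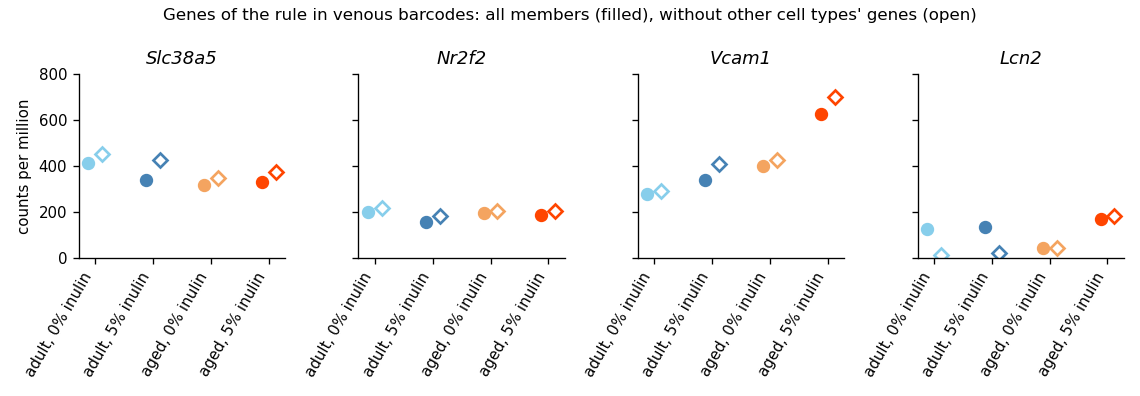
Level in CPM of *Slc38a5*, *Nr2f2*, *Vcam1* and *Lcn2* in the venous barcodes of each mouse, with all members (filled circles) and without the barcodes rich in other cell types' genes (open diamonds). *Lcn2* drops from 127 to 12.8 and from 135 to 24.4 CPM in the adult mice when those barcodes are left out and stays near 43.0 and 172 CPM in the aged mice, while the other genes keep similar levels.

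Venous barcodes made up 9.24, 8.19, 7.35 and 7.17% of the endothelial gate, with exact 95% binomial intervals of 8.02 to 10.6, 7.18 to 9.29, 6.11 to 8.76 and 6.12 to 8.33%, which cover counting error only. Adult mice averaged 8.71% ± 0.74 and aged mice 7.26% ± 0.13 (SD over 2 mice each), and the ages did not overlap. The difference of -1.45 percentage points had an exact two-sided permutation p of 0.33, the smallest that 2 mice against 2 can give. With the threshold raised to 8 UMIs the difference shrank to -0.255 points and the ages overlapped (exact permutation p = 0.667). With *Slc38a5* and *Nr2f2* alone (at least 2 UMIs) it was -3.61 points (exact permutation p = 0.33). By diet the share was 7.68% with 5% and 8.29% with 0% inulin.

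**Figure D3:**
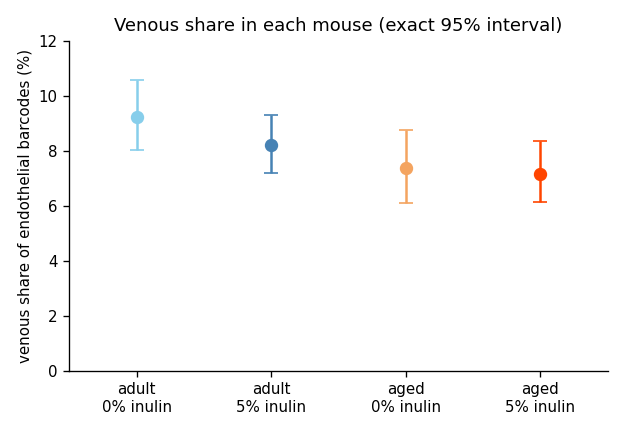
Share of the endothelial barcodes of each mouse that met the venous rule, in percent, with exact 95% binomial intervals. Both adult mice (9.24 and 8.19%) lie above both aged mice (7.35 and 7.17%), and all 4 intervals overlap.

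To ask what age changed within venous cells, UMIs were summed per gene over the venous barcodes of each mouse and 2 aged mice were compared with 2 adult mice, diets pooled. In the quasi-likelihood test of edgeR, 37 of 11109 genes (0.33%) changed with age, that is, had a Benjamini-Hochberg adjusted p under 0.05 and differed at least 1.5-fold. Of these, 15 rose (0.135%) and 22 fell (0.198%). The 2 ages overlapped for none of the 37. With 2 mice against 2 a call largely implies this, here and for the called genes below, so it is no further evidence. Chaperone genes were among the falls, the RNA-binding protein genes *Rbm3* and *Cirbp* and the cytochrome P450 genes *Cyp2e1* and *Cyp1b1* among the rises, and 9 of the 22 falls were genes of granulocytes. Without the 64 barcodes rich in other cells' genes, 72 of 10293 genes (0.7%) were called, 38 up and 34 down, of which 27 were also called with all members and 1, *Lcn2*, belongs to the rule. That set still held RNA of other cells. The choroid plexus list summed to 11075, 38681, 10544 and 16419 CPM with all members and to 4401, 3837, 2408 and 2237 CPM without the 64 barcodes. *Enpp2* and all its other genes but *Ttr* had helped choose the barcodes to leave out, so part of this drop was built in for the list. Among the 34 falls were its genes *Ttr*, the transthyretin gene, from 3958 and 3427 to 2205 and 2057 CPM, and *Enpp2*, the autotaxin gene, from 378 and 358 to 180 and 154 CPM, both picked out with their values known. Both were lower in the aged mice in capillary-type and arterial-type barcodes as well, and the part of choroid plexus RNA in these falls was not tested. Without the 5 granulocyte-gene barcodes alone, 19 were called, and with diet as a covariate, which sets mice of the same diet against each other, 73, which included all 37. The count moved with each mouse left out, to 10 without the adult mouse fed 0% inulin, 17 without the adult mouse fed 5%, 243 without the aged mouse fed 0% and 327 without the aged mouse fed 5%, fits in which a lone mouse was assumed to vary like the others.

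Proteins of the heat shock family fold new or damaged proteins, and their genes were the most uniform group. Of 23 tested genes of a heat shock and protein folding list, 5 fell, none rose, and all 23 fold changes were negative, with a median log2 fold change of -0.50 against -0.0024 over all genes tested. The mitochondrial share of UMIs also moved with age, with a median of 5.23, 5.48, 6.41 and 5.83% in venous, 4.98, 5.24, 6.01 and 6.14% in capillary-type and 4.48, 4.67, 5.24 and 5.45% in arterial-type barcodes. The aged mice lay above the adult mice in each class, and the part of cell quality in the results by age was not tested. *Hsph1* (chromosome 5, 149614287 to 149636376), which encodes a nucleotide exchange factor of HSP70, stood at 98.1, 84.1, 20.7 and 28.9 CPM. It was higher in both adult mice than in both aged mice, and its fold change was -1.81 on the log2 scale (standard error 0.19, adjusted p = 0.00704). *Dnaja1* (chromosome 4, 40722150 to 40737149), a co-chaperone of HSP70, stood at 800, 685, 379 and 384 CPM and changed by -0.93 on the log2 scale (standard error 0.11, adjusted p = 0.0187). *Hsp90ab1*, the constitutive HSP90, stood at 2541, 2187, 1331 and 1374 CPM and changed by -0.78 (standard error 0.097, adjusted p = 0.0194). *Hspa8*, the constitutive HSP70, changed by -0.69 and *Hspb1*, a small heat shock protein gene, by -0.78 (adjusted p = 0.0272 and 0.0285). For all 5 genes the aged mice lay below the adult mice. The inducible *Hsp90aa1* stood at 840, 626, 302 and 409 CPM and *Dnajb1* at 95.5, 82.3, 37.6 and 49.6 CPM, and neither passed the test with all members (adjusted p = 0.0571 and 0.0617). *Hspa1a* and *Hspa1b*, near-identical copies whose reads may have been split uncertainly, stood at 369, 350, 164 and 343 CPM and at 195, 165, 63.0 and 153 CPM. In both the aged mouse fed 5% inulin lay close to the adult mice, and neither passed (adjusted p = 0.60 and 0.49). The endoplasmic reticulum chaperone genes *Hspa5*, *Hsp90b1*, *Pdia4*, *Pdia6* and *Calr* did not pass the test, with log2 fold changes of -0.47 to -0.25.

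Partners of these chaperones were among the other calls. *Stip1*, which links HSP70 to HSP90, stood at 103, 87.1, 48.4 and 48.1 CPM and changed by -0.95 (standard error 0.15, adjusted p = 0.0448). *Cacybp*, whose product binds calcyclin and HSP90, stood at 209, 179, 79.9 and 110 CPM and changed by -0.98 (standard error 0.16, adjusted p = 0.0467). *Fkbp4*, *Ahsa1* and *Serpinh1*, an HSP90 immunophilin, an activator of the HSP90 ATPase and the collagen chaperone HSP47, changed by -0.80, -0.79 and -0.75 (adjusted p = 0.0285, 0.0495 and 0.0487). These 3 were chosen for mention after their values were seen. *P4ha1*, a collagen prolyl hydroxylase subunit gene, fell from 82.5 and 74.2 to 32.2 and 37.1 CPM (adjusted p = 0.0285), and *Auts2*, a nuclear regulator gene, from 59.6 and 69.8 to 28.4 and 29.8 CPM (adjusted p = 0.0432). Without the 64 barcodes rich in other cells' genes, 8 heat shock genes fell, now also *Hsp90aa1* (log2 fold change -1.11, adjusted p = 0.0156), *Dnajb1* (-1.23, adjusted p = 0.00992) and *Hspe1* (-0.63, adjusted p = 0.048), and the list's median was -0.61, with 22 of 23 fold changes negative. All chaperone genes named here as called with all members were also called in that fit.

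**Figure D4:**
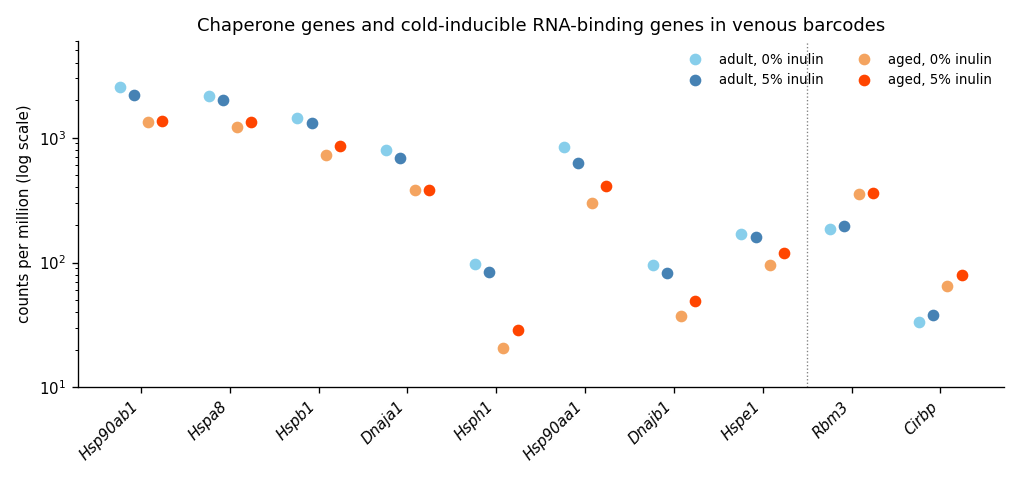
Level in CPM (log axis) in the venous barcodes of each mouse for 8 heat shock genes and, right of the dotted line, the RNA-binding protein genes *Rbm3* and *Cirbp*. In each of the 8 the blue adult points lie above the orange aged points, as for *Hsph1* with 98.1 and 84.1 against 20.7 and 28.9 CPM, and for *Rbm3* and *Cirbp* the aged points lie above.

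Heat shock factors bind inverted repeats of the letters GAA. A pattern of 3 such units, GAANNTTCNNGAA or TTCNNGAANNTTC, was searched on both strands of the 250 bases before each start site in the promoter table of RefSeq (GRCm38.p6). It was held by 139 of 27025 genes (0.514%) and by 2 of the 18 heat shock list genes with an entry, the neighboring genes *Hspd1* and *Hspe1*. Those genes are transcribed away from each other, so both matches are 1 stretch on chromosome 1 read from either strand. It is shown because *Hspe1*, the gene of the mitochondrial co-chaperonin, was among the genes that fell without the other cells' barcodes, with capitals marking the matched letters. *Hspd1*, which shares the stretch, was called neither with all members nor without those barcodes, and a link between the letters and the fall was not tested. *Hspe1* lies on the plus strand and the stretch at chr1:55088035-55088094, and the *Hspd1* stretch is on the minus strand at chr1:55088041-55088100.
Hspe1: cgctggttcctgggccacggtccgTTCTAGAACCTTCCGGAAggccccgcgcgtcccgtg
Hspd1: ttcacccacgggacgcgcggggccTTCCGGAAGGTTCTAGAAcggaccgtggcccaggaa
Of the 5 called list genes, 3 had a promoter entry and none of the 3 held these letters in this window, a statement on the letters and the window only.

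Among the rises, *Rbm3* (chromosome X, 8138975 to 8145880) and *Cirbp* (chromosome 10, 80165985 to 80172786) encode RNA-binding proteins known to be induced by mild cold. *Rbm3* stood at 186, 197, 355 and 359 CPM and rose by 0.92 on the log2 scale (standard error 0.11, adjusted p = 0.0179). *Cirbp* stood at 33.7, 37.8, 64.5 and 79.9 CPM and rose by 1.05 (standard error 0.17, adjusted p = 0.0487). Both aged mice lay above both adult mice for either gene.

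*Cyp2e1*, *Cyp1b1*, *Fmo2*, *Acer2* and *Ptgs2*, all enzyme genes, also rose. *Cyp2e1* was higher in both aged mice (342 and 350 CPM) than in both adult mice (156 and 98.5). It rose by 1.48 on the log2 scale (standard error 0.18, adjusted p = 0.0194). The rise was not seen in all members, as the split along *Vcam1* described above shows. Where *Vcam1* had at least 4 UMIs, *Cyp2e1* stood at 187, 197, 545 and 472 CPM. In members with no UMI of *Vcam1* it stood at 194, 56.4, 150 and 142 CPM, and the ages overlapped. Among genes outside the rule with at least 50 CPM in every venous sum, *Cyp2e1* was the top one in the ranking over capillary-type barcodes given above. It was seen in 15.2, 11.4, 31.6 and 31.2% of the venous barcodes thinned to 2000 UMIs (27.7, 17.3, 47.0 and 48.1% unthinned) and in at most 0.24% of the thinned microglial ones. *Cyp1b1*, another cytochrome P450 gene, had no UMI in the venous barcodes of the adult mice and stood at 12.3 and 12.99 CPM in the aged ones. Against the 3 counts over both adult mice that a count of 0 allows, it was at least 21.4-fold higher (adjusted p = 0.0272). *Fmo2*, a flavin-containing monooxygenase gene, stood at 685, 701, 1356 and 1114 CPM and rose by 0.86 (standard error 0.12, adjusted p = 0.0285). *Acer2*, an alkaline ceramidase gene, stood at 114, 122, 200 and 215 CPM and rose by 0.84 (standard error 0.11, adjusted p = 0.0272). *Ptgs2* (cyclooxygenase 2), which makes prostaglandins, stood at 25.5, 34.5, 69.1 and 69.3 CPM and rose by 1.22 (standard error 0.18, adjusted p = 0.0415). In each of these genes the higher adult mouse lay below the lower aged mouse.

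Other rising genes belong to signaling, the cell cycle and metal binding. *Scube2*, a secreted protein of hedgehog and VEGF signaling, had the largest rise among the genes with a mean of at least 20 CPM, from 18.1 and 13.2 to 51.4 and 43.3 CPM (log2 fold change 1.61, standard error 0.22, adjusted p = 0.0285). *Ccnd1* (cyclin D1) rose from 20.7 and 25.7 to 53.7 and 80.4 CPM (1.57, standard error 0.22, adjusted p = 0.0285). *Smad7*, an inhibitor of TGF-beta receptors, rose from 178 and 190 to 307 and 330 CPM (0.82, standard error 0.11, adjusted p = 0.0272). *Cp* (ceruloplasmin), a copper-carrying ferroxidase, rose from 148 and 138 to 231 and 226 CPM (0.70, standard error 0.11, adjusted p = 0.0428). *Plscr2*, a phospholipid scramblase gene, and the predicted gene *Gm26870* rose by 0.98 and 0.96. With barcodes above 22005 UMIs left out, the change of *Gm26870* was 0.44 (adjusted p = 0.62), and in capillary-type barcodes it was -0.94 (adjusted p = 0.32). *Ntn4*, a netrin gene, and *Slc26a10*, both under 20 CPM on average, were the remaining rises.

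The largest falls among all calls belonged to granulocyte genes and came from the few barcodes described above. *Camp*, an antimicrobial peptide of neutrophils, stood at 454, 360, 2.30 and 2.41 CPM (log2 fold change -7.37, standard error 0.23, adjusted p = 1.75e-06), and *S100a8*, a subunit of calprotectin, at 1788, 1189, 30.7 and 46.2 CPM (-5.22, standard error 0.24). *S100a9*, *Ngp*, *Ltf* and *Wfdc21* changed by -5.72, -7.08, -6.57 and -5.79 on the log2 scale, and *Mmp9*, *Cd177* and *Ly6g* were the other 3 of the 9. Without the 64 barcodes, *S100a8* and *S100a9* changed by -0.29 and -0.09 (adjusted p = 0.82 and 0.95) and the other 7 were no longer abundant enough to be tested. *Clu*, the gene of the secreted chaperone clusterin, fell from 373 and 361 to 193 and 199 CPM (-0.87, adjusted p = 0.0189). It is abundant in astrocytes, whose listed genes summed to 885, 950.5, 667 and 255 CPM in the venous barcodes and to 167, 135, 135 and 161 CPM without the 64 barcodes. There *Clu* stood at 244, 92.1, 57.7 and 116 CPM, and its change was again -0.87, with a larger error (standard error 0.38, adjusted p = 0.42). The part of astrocyte RNA in its fall was not tested.

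Lists of inflammation and antigen presentation are given by their counts and medians. With 0.33% of all genes called (0.7% without the 64 barcodes), a list of this size is not set apart by holding no call or 1. Of 24 tested NF-kB and acute phase genes, *Ptgs2* alone passed with all members (median log2 fold change -0.00053). Without the 64 barcodes *Cebpd* and *Lrg1* also rose. *Cebpd*, an acute phase transcription factor, then stood at 128, 122, 174 and 223 CPM (log2 fold change 0.70, adjusted p = 0.0278). *Lrg1*, a secreted glycoprotein of inflamed venules, stood at 0.99, 0.48, 6.89 and 30.7 CPM (4.68, adjusted p = 0.0265), so that most of its rise lay in the aged mouse fed 5% inulin. Of 23 class I MHC and antigen processing genes, none passed with all members (median 0.25), and *H2-Q6* passed without the 64 barcodes, although its reads may be shared with the near-identical *H2-Q7*. *B2m*, the invariant light chain of class I molecules, stood at 774, 1172, 1471 and 1340 CPM and *H2-K1* at 715, 1132, 1407 and 1484 CPM. In both the adult mouse fed 0% inulin was the lowest by far, and the adjusted p was 0.31 and 0.24. Of 39 interferon response genes none passed with all members and 32 had positive fold changes (median 0.27). The list's median with age was 0.07 in capillary-type and 0.07 in arterial-type barcodes. For 5% over 0% inulin in venous barcodes it was 0.23. *Ifit1* stood at 109, 97.7, 153 and 177 CPM (0.71, standard error 0.12, adjusted p = 0.0672). *Ifit1* passed without the 64 barcodes (0.61, adjusted p = 0.0444), where 28 of the 39 had positive fold changes and the list's median was 0.17. The class I MHC list then had a median of 0.15 and the NF-kB list one of -0.01.

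Lists of the barrier, adhesion and signaling are read against the same shares, under which no call in a list is no result about it. Of 35 tested genes of blood-brain barrier junctions and transport, none passed in either fit (median log2 fold change -0.04), with the glucose transporter gene *Slc2a1* at 2737, 2574, 3305 and 2880 CPM and the tight junction gene *Tjp1* at 798, 743, 669 and 587 CPM. Of 18 leukocyte adhesion genes none passed with all members (median -0.07, and -0.14 without the 64 barcodes). In that list *Cxcl12* stood at 632, 846, 1140 and 1538 CPM (0.88, standard error 0.17, adjusted p = 0.101) and passed without the 64 barcodes (0.82, adjusted p = 0.0276). *Vwf*, of the coagulation list, did likewise (0.67, adjusted p = 0.143 with all members, and 0.60, adjusted p = 0.0385 without them). In the other lists no gene passed with all members but *Smad7* of the TGF-beta list: basement membrane (20 genes tested, median -0.0090), Wnt and beta-catenin (21, -0.09), TGF-beta and BMP (21, 0.10), VEGF, Notch and angiopoietin (24, 0.0068), immediate early genes (27, 0.05), nuclear-encoded respiratory chain (93, 0.08), senescence (15, 0.15), and oxidative stress and metal handling (23, 0.06). Without the 64 barcodes these medians were -0.06 for basement membrane, -0.16 for Wnt, 0.11 for TGF-beta, -0.09 for VEGF and Notch, 0.10 for immediate early genes, 0.10 for the respiratory chain, 0.03 for senescence and 0.07 for oxidative stress, so the VEGF and Notch list changed sign. In that fit the immediate early genes *Ier3* and *Gadd45g* rose and *Atf3* fell.

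To see where venous cells differed from their neighbors, the same age comparison was made in capillary-type and arterial-type sums of the same mice. Of the 37 genes, 34 could be tested in capillary-type and 32 in arterial-type barcodes. As the classes come from the same 4 mice, their values are set side by side here and are not independent. The changes of *Hsph1* (-1.81, -2.06 and -1.74) and *Dnaja1* (-0.93, -1.05 and -0.98) were of like size in venous, capillary-type and arterial-type barcodes. So were those of *Rbm3* (0.92, 0.85 and 0.86). Several other rises were not limited to venous barcodes, with *Ptgs2* at 1.22, 2.33 and 1.23, *Fmo2* at 0.86, 1.16 and 2.05 and *Scube2* at 1.61, 0.98 and 0.83, each with an adjusted p under 0.05 in all 3 classes. The heat shock list had a median of -0.50, -0.37 and -0.36.

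**Figure D5:**
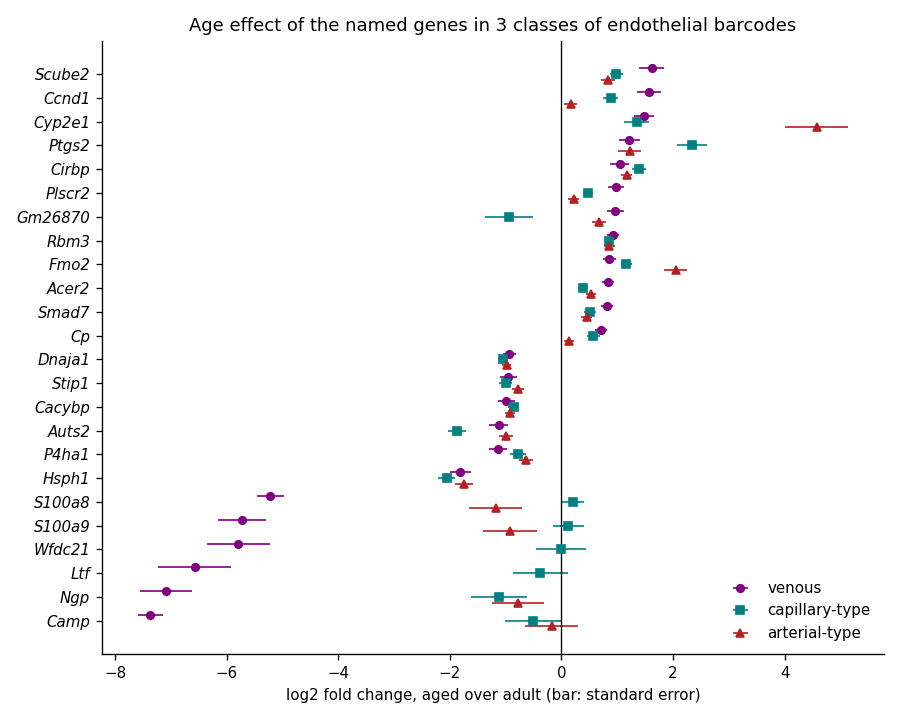
Log2 fold change of aged over adult mice, with its standard error, of the 12 largest rises and the 12 largest falls of at least 20 CPM in venous barcodes (circles), beside the same genes in capillary-type (squares) and arterial-type barcodes (triangles). The points of *Hsph1*, *Dnaja1* and *Rbm3* lie close together in the 3 classes, those of *Cyp2e1* and *Ccnd1* spread apart, and the venous points of the granulocyte genes at the bottom lie far to the left.

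The difference itself was tested as an age-by-class term with the mouse as a block. Between venous and capillary-type sums, 10 of 12237 genes (0.0817%) differed, all with a more negative age effect in venous barcodes. That split held with DESeq2 (8 genes), with RLE scaling (10), without Scrublet calls (11) and with barcodes above 22005 UMIs left out (2). It did not hold without the barcodes rich in other cells' genes, where 20 genes were called, 8 of them with a more positive effect. With at least 8 UMIs of the 4 venous genes, 14 were called, 3 of them more positive. Granulocyte genes made up 7 of the 10. Without the granulocyte-gene barcodes of both classes (5 venous and 17 capillary-type) none was called in edgeR. There 649 genes had an unadjusted p under 0.05. The others were *Cxcl10*, which stood at no more than 10.4 CPM in any venous sum, *Rarres2*, the gene of the chemoattractant chemerin, and *Mt3*, a brain metallothionein gene. *Rarres2* stood at 127, 76.8, 12.3 and 54.4 CPM in venous and 52.3, 21.6, 24.1 and 70.2 CPM in capillary-type barcodes (difference of log2 fold changes -2.02, standard error 0.24, adjusted p = 0.0122), and with barcodes above 22005 UMIs left out its difference turned to 0.59. *Mt3* stood at 314, 282, 95.2 and 189 CPM in venous and 137, 103, 95.5 and 146 CPM in capillary-type barcodes (-1.09, standard error 0.14, adjusted p = 0.0222). *Mt3* is abundant in astrocytes, and without the barcodes rich in other cells' genes in both classes (64 venous and 367 capillary-type) it had an adjusted p of 0.129. The part of astrocyte RNA in the difference of *Mt3* was not tested. With members chosen by *Slc38a5* and *Nr2f2* alone, none was called in edgeR, with 574 at an unadjusted p under 0.05. DESeq2 called 8 in the full set.

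Between venous and arterial-type sums, 13 of 12698 genes (0.102%) differed in their age effect, 7 with a more positive effect in venous barcodes. *Ccnd1* rose in venous barcodes and stood at 191, 171, 171 and 223 CPM in arterial-type ones (difference 1.39, standard error 0.18, adjusted p = 0.0307). *Ccn1*, a matricellular protein gene, stood at 69.1, 53.6, 78.3 and 84.7 CPM in venous and 247, 214, 160 and 166 CPM in arterial-type barcodes (0.92, standard error 0.13, adjusted p = 0.0324). *Rgs5* and *Cxcl12* also had the more positive age effect in venous barcodes, by 0.71 and 0.59 (adjusted p = 0.0452 for both). *Rgs5*, also a gene of mural cells, stood at 248, 266, 377 and 369 CPM in venous and 884, 943, 800.1 and 814 CPM in arterial-type barcodes. The mural list, which holds *Rgs5* itself, summed to 326, 498, 915 and 510 CPM in venous barcodes, and to 346, 407, 482 and 471 CPM without the 64 barcodes, where the difference of *Rgs5* was still called (0.60). The part of mural RNA in it was not tested. *Cyp2e1* differed the other way (-3.04, standard error 0.47, adjusted p = 0.0477). Its arterial-type level was 0.46 and 0.21 CPM in adult and 9.81 and 7.13 CPM in aged mice, so the larger ratio there rested on levels near 0. *Clu* had the more negative effect in venous barcodes (-1.13, standard error 0.17, adjusted p = 0.0413). *Vcam1* was among the 13 too, with 36.3, 36.3, 24.0 and 30.6 CPM in arterial-type barcodes, which is a description only because it chose the members. *Camp*, *Ltf* and *Ngp* differed through the granulocyte-gene barcodes, and the other 3, *Top2a*, *Tent5c* and *Hist1h2ae*, had a mean under 20 CPM. Without the granulocyte-gene barcodes of both classes (5 venous and 4 arterial-type) 6 genes were called, and without the barcodes rich in other cells' genes (64 venous and 153 arterial-type) 45.

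The study also asked for an effect of fiber. With ages pooled, 1 of 11109 genes (0.009%) differed between 5% and 0% inulin, the hemoglobin gene *Hbb-bt*. It stood at 923, 21.7, 703 and 9.62 CPM, lower in both mice fed 5% (log2 fold change -5.66, standard error 0.35, adjusted p = 0.00936). Red cell genes summed to 9880, 416, 3989 and 930 CPM in all venous barcodes and to 49.4, 125, 65.4 and 78.8 CPM without the 64 barcodes, where no gene was called in edgeR, with 204 at an unadjusted p under 0.05. With all members DESeq2 called 5 genes. With age as a covariate, which sets mice of the same age against each other, 20 genes were called, 16 higher and 4 lower with 5% inulin, so that the number and the direction of the diet calls depended on this choice.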

How the data were processed

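Reads had been aligned to GRCm38 and UMIs counted by the authors in Cell Ranger 3.1.0, with Ensembl release 98 per the methods of the study. The deposited values are raw UMI counts per gene and barcode, 1 matrix per mouse, over 55573 listed genes, without normalization. The barcodes in the files equal in number the cells that the study counted before it removed doublets and dead cells. Groups came from the sample labels, the sex from the study's text. Here, barcodes were chosen by the rule given above and UMIs were summed per mouse and class. The members, the gene lists and the tests were chosen with earlier results of these data known. Rule genes stayed in the fits across all genes, but their values are given as a description only. A few genes that met the naming rule are not reported here.

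The test across genes was the quasi-likelihood fit of edgeR 4.0.16 on these sums after filterByExpr and TMM scaling, with p-values adjusted by Benjamini-Hochberg over every gene tested (called: adjusted p under 0.05 and at least 1.5-fold), with DESeq2 1.42.0 in R 4.3.3 as an alternative. Age-by-class terms had the mouse as a block. Shares were compared with an exact permutation test over mice. Mice are separate animals, 1 per age and diet. Standard errors were taken from the F statistic, as log2 fold change divided by its root. On simulated sums with 200 genes changed 2-fold, the age test recovered 86.5% with 20 false calls over 10811 genes, and the age-by-capillary test 70.5% with 13 false calls over 11863 genes. The changed genes were drawn only from those with high mean counts, so recovery at low counts was not tested. All simulated sums shared the same mean profile, so a mouse whose signal rests on a few barcodes was not imitated.

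Named genes were the 12 largest rises and 12 largest falls with age of at least 20 CPM over all mice and no overlap of the ages, 5 and 5 for diet, 8 and 8 for each age-by-class test, the 12 highest over capillary-type barcodes with at least 50 CPM in every venous sum, the genes of the fixed lists and those of the rule. Doublets were scored with Scrublet in scanpy 1.11.5 (expected rate 0.08, seed 0) and kept in, and barcodes were thinned with seed 7. Other steps ran in Python 3.11.15 (pandas 2.3.3, scipy 1.17.1, numpy 2.4.6). Coordinates are from GENCODE vM21 (GRCm38) and promoters from RefSeq. Alternatives were other member thresholds, an upper limit of 22005 UMIs, no Scrublet calls, RLE scaling, no filter on low counts, a covariate, each mouse left out, and, added after the values were seen, barcodes with at least 20 UMIs per 10000 of other cell types' genes, or of granulocyte genes, left out of every class.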

Additional observations from a re-analysis of the deposited data

Results flagged for a closer look

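Genes whose age effect in venous barcodes differed from that in another endothelial class, by the age-by-class term in edgeR, are listed with the difference of their log2 fold changes (venous minus the other class). Against capillary-type barcodes the differences were -6.743 for *Camp*, -6.074 for *Ltf*, -5.82 for *Ngp*, -5.771 for *S100a9* and -5.377 for *S100a8*, all granulocyte genes that 4 barcodes of the adult mice held almost alone. Against the same class they were -2.023 for *Rarres2* and -1.092 for *Mt3*. *Rarres2* stood at 127, 76.8, 12.3 and 54.4 CPM in the venous sums of the adult mice fed 0% and 5% and the aged mice fed 0% and 5% inulin, so the aged mouse fed 0% was the lowest.

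Against arterial-type barcodes the differences were 1.392 for *Ccnd1*, 0.9155 for *Ccn1*, 0.7137 for *Rgs5* and 0.5873 for *Cxcl12* on the positive side. On the negative side they were -7.015 for *Camp*, -6.833 for *Ltf*, -6.211 for *Ngp*, -3.04 for *Cyp2e1* and -1.132 for *Clu*. Without the barcodes rich in other cell types' genes, *Ccnd1* (1.36), *Ccn1* (0.92), *Rgs5* (0.60), *Cyp2e1* (-3.57) and *Clu* (-1.04) were still called against arterial-type barcodes and *Rarres2* (-2.11) against capillary-type ones. In that fit *Cxcl12* (0.51) had an adjusted p of 1.47e-05 but a fold under the threshold of 1.5, and *Mt3* (-0.64) was not called.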

How the results depend on the processing

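The venous share was lower in aged mice under every alternative tried (-0.255 to -3.61 points, and -0.931 to -1.98 with each mouse left out). The number of genes called with age, 37, became 19 without the granulocyte-gene barcodes, 72 without barcodes rich in other cell types' genes, 21 with DESeq2, which gave an adjusted p to 556 genes alone, 73 with diet as a covariate, 81 with at least 6 UMIs per 10000 of the 4 venous genes, and 403 with no filter on low counts. It ranged from 10 to 327 with each mouse left out. The single diet call became 0 without barcodes rich in other cell types' genes, with *Slc38a5* and *Nr2f2* alone, with at least 6 per 10000, with at least 8 UMIs and with the upper UMI limit, 5 with DESeq2, 20 with age as a covariate, 137 with no filter, and 1 to 20 with each mouse left out. The 10 genes of the capillary-type comparison became 0 without the granulocyte-gene barcodes and with *Slc38a5* and *Nr2f2* alone, 2 with the upper UMI limit, 20 without other cell types' genes, 107 with no filter, and 40 to 83 with each mouse left out. The 13 of the arterial-type comparison became 6, 45, 8 with DESeq2, 8 with at least 6 per 10000, 132 with no filter, and 29 to 144 with each mouse left out, the first 2 values being those without granulocyte genes and without other cell types' genes.

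Directions reversed for *Hbb-bt* by diet (1.211 with at least 6 per 10000 and 0.9913 without other cell types' genes). In the capillary-type comparison they reversed for *Camp* (0.2897) without granulocyte genes, for *Ngp* without other cell types' genes (0.1635) and without granulocyte genes (0.4231), for *S100a9* in the same 2 settings (0.03052 and 0.06995) and for *Rarres2* (0.5852) with the upper UMI limit, and in the arterial-type comparison for *Ngp* (0.04204) without granulocyte genes. The alternatives without granulocyte or other cell types' genes drop barcodes for those very genes, and for *Rarres2* and for *Hbb-bt* with at least 6 per 10000 the cause was not tested. Of 327 refits of the genes named for age that gave an adjusted p, none reversed, 255 stayed called and 72 were no longer called, with fold changes of a median 0.94 times the log2 value reported (0.01 to 1.21 times). DESeq2 gave an adjusted p to 5 of the 24. With the adult mouse fed 0% or 5% inulin left out, 7 of the 24 stayed called in each case, and with either aged mouse left out all 24 did.

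Limits were as follows. Each condition had 1 mouse, so that age was tested with 2 mice against 2, and age and origin of the mice cannot be told apart. The venous sums held 1302408 to 2721736 UMIs, so that genes under about 20 CPM were measured with few counts. Replicate numbers paired no mice, because each group had 1 sample. Mice were matched by diet in the fit with diet as a covariate and by age in the fit with age as a covariate. In the age-by-class terms each mouse was its own block. The choice of members used *Vcam1* and *Lcn2*, whose own levels varied between mice.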
